A study of Mus musculus with 6 samples.

Results

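The genes described here encode 10 members of the Bcl2 family of apoptosis regulators, listed by symbol. The list was chosen with earlier results of these data known, so counts of members called describe this list only. All 10 were found among the 37991 gene identifiers counted in each library, and all 10 passed the filter on low counts that left 16683 genes for testing. Of the members, 3 are anti-apoptotic (Bcl2, Bcl2l1 and Mcl1) and 7 are pro-apoptotic. The pro-apoptotic members comprise 5 BH3-only genes (Bcl2l11, Bbc3, Pmaip1, Bid and Bad) and 2 effectors (Bax and Bak1).

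The family decides whether the outer mitochondrial membrane stays sealed. Anti-apoptotic proteins hold the effectors Bax and Bak1 in check, BH3-only proteins relieve that restraint or activate the effectors directly, and active effectors open the membrane and release cytochrome c. Developing B cells are culled by this pathway at several checkpoints, Bcl2l1 protein (Bcl-xL) is known as a survival factor of the pre-B cell stage, and high Myc activity is known to sensitise cells to apoptosis. In Eμ-Myc mice, loss of Bcl2l11 or forced expression of Bcl2 is known to speed the appearance of lymphoma.

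Polyadenylated RNA was sequenced from bone marrow pre-B cells of C57BL/6 mice at 3 stages, with 2 libraries per stage and 6 in all. Wild type mice carried no transgene and were 4 to 6 weeks old, and premalignant mice were heterozygous for the transgene (E{mu}Myc/+) at the same age. Malignant mice had the same genotype and were taken at 10 to 20 weeks, once spontaneous lymphoma had formed. The transgene drives Myc from the immunoglobulin heavy-chain enhancer in the B lineage, so its effects are not limited to the sorted stage. Wild type and premalignant cells were sorted as B220high, IgM low and IgD low, a gate that holds pro-B and pre-B cells, and came from females. Malignant cells came from females and males. The paper's methods give their gate as B220 positive and negative for IgM and IgD. The submitters' sorting protocol instead gives B220 high, IgM low and IgD low for all stages. Stage therefore cannot be told apart from age for the malignant cells, nor from gate if the gates differed, nor from sex where the mice were male. Each lymphoma is an expanded clone of its own.

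Total counts lay between 30031100 and 53453055 per library, and replicate 1 was the deeper library at every stage. Myc stood at 33.8 and 41.4 CPM (counts scaled to library size, with TMM normalization) in wild type, 1164 and 1155 in premalignant and 1732 and 1578 in malignant libraries, in the order of the labels. The summed level of 12 pre-B markers was 7612 and 8305 CPM in wild type, 3511 and 3464 in premalignant and 3197 and 2827 in malignant libraries. In malignant replicate 1 the pre-B markers Dntt, Igll1 and Vpreb1 lay at 0.10, 0.17 and 0.15 CPM. Markers of other cells were highest in wild type libraries for myeloid cells (7 genes, 776 and 1703 CPM against 55.3 to 248 in the other 4 libraries), erythroid cells (5 genes, 293 and 1080 against 52.3 to 138), NK cells (3 genes, 92.8 and 35.3 against 0.523 to 4.55), plasmacytoid dendritic cells (3 genes, 374 and 244 against 45.2 to 104), plasma cells (4 genes, 168 and 142 against 47.5 to 80.2) and T cells (6 genes, 87.8 and 44.1 against 1.34 to 33.1). Of all these markers, 1 was at 0 in a library (Cd3e in premalignant replicate 2), and the 4 mature B markers found gave 244 to 460 CPM over all 6 libraries. That sum covers opposite changes in malignant against wild type cells. Cd22 was called higher (log2 fold change 0.90), while Ms4a1, Cr2 and Fcer2a were called lower (-1.31, -2.01 and -3.00). In wild type the plasma cell sum came mostly from Xbp1 (91.9 and 71.3 CPM) and Sdc1 (69.5 and 65.0), while Tnfrsf17 lay at 0.0175 and 0.170. The T cell sum in wild type came mostly from Cd4 (48.7 and 27.8 CPM), while Cd3d, Cd3e and Cd3g lay at 0.651 to 3.35. Cd8a was not highest in wild type, at 8.54 and 5.63 CPM there and 17.8 and 6.84 in premalignant libraries. The part of other cells in the changes of the members was not tested.

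The promoters of the members are shown for the motifs that bear on 3 regulators of the family: CACGTG (the E-box bound by Myc and its partners), GTAAACA (bound by Foxo factors) and the p53 half-site. TTCNNNGAA, the letters bound by Stat5, was searched as well. Windows from 250 bases before to 50 bases after each start site came from RefSeq (GRCm38.p6). The search covered 15 windows of 9 members. Pmaip1 was left out of the search, so the presence of these motifs in its promoter was not tested. Both strands were searched, and no matches of different motifs overlapped. The sequences below run 5′ to 3′ on the strand of the gene, with the matched letters in capitals (GTAAACA reads TGTTTAC where it lies on the other strand).
Bax, chr7:45466899-45467148, minus strand: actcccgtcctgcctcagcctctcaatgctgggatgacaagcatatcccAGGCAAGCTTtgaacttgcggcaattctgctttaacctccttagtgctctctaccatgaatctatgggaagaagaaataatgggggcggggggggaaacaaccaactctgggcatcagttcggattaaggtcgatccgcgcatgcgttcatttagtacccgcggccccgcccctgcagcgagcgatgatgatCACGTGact
Bcl2l11, chr2:128125799-128125828, plus strand: caagacactaggGTAAACAcgccggggtgg
Bbc3, chr7:16310082-16310111, plus strand: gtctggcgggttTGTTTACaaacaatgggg
Bbc3, chr7:16310355-16310384, plus strand: gcggggcgggcgCACGTGgcggcgtcgagg

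Counted from the start site, the Bax promoter held CACGTG at -9 to -4, a further CACGTG at 36 to 41 within the first exon, and a p53 half-site at -201 to -192. Bcl2l11 held GTAAACA at -227 to -221, and Bbc3 held GTAAACA at -167 to -161 of one window and CACGTG at -64 to -59 of another that overlaps it. No match to these letters was found in the windows of Bcl2, Bcl2l1, Mcl1, Bid, Bad and Bak1, and TTCNNNGAA was in none of the 15. Over all 32851 windows, CACGTG was present in 7.15%, GTAAACA in 3.65%, the p53 half-site in 8.36% and TTCNNNGAA in 8.3%. CACGTG was in 2 of the 15 member windows, GTAAACA in 2 and the p53 half-site in 1. A match is a description of the letters and not evidence of binding.

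Bcl2l1 fell 8.61-fold in premalignant cells and 17.1-fold in malignant cells against wild type, Bid rose 2.67-fold and 5.37-fold, and Bbc3 and Bax rose in both. Bcl2 moved in opposite directions, lower in premalignant and higher in malignant cells, with a wide spread between the malignant libraries. From premalignant to malignant cells Bcl2 rose 8.71-fold and Pmaip1 4.72-fold. Mcl1 kept the highest level per length of any member in all 6 libraries. A gene was called where edgeR's quasi-likelihood test gave a Benjamini-Hochberg adjusted p of at most 0.1 over all genes tested with a log2 fold change of 0.5 or more in either direction, as the study set them. With 2 libraries against 2, an exact permutation test of a single gene cannot give a p below 0.333, so the calls rest on a spread that the model shares across genes and stages.

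**Figure D1:**
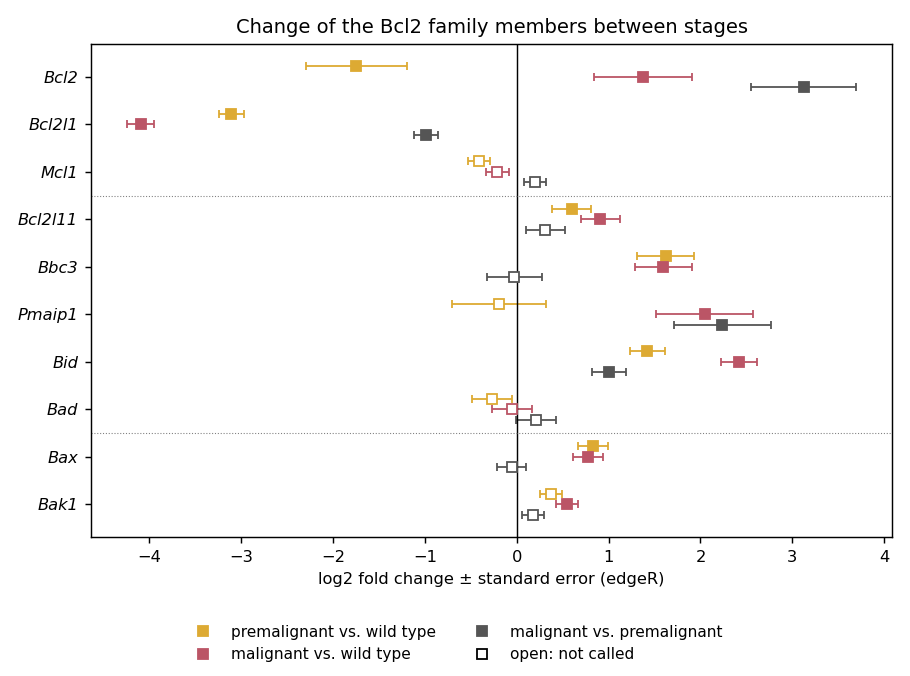
Log2 fold change of each member in the 3 comparisons (x axis, log2 units), with bars of 1 standard error from edgeR and members in order of role from top to bottom: 3 anti-apoptotic, 5 BH3-only, 2 effectors. Filled squares were called, open squares were not, and Bcl2l1 in malignant against wild type cells lies farthest from 0 at -4.09.

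In premalignant against wild type cells 6 of 10 members were called, 4 higher and 2 lower, beside 39.3% of all genes tested (19% higher and 20.3% lower). The members that fell were 2 of the 3 anti-apoptotic genes, and those that rose were 4 of the 7 pro-apoptotic genes. In malignant against wild type cells 8 members were called, 7 higher and 1 lower, beside 49.2% of all genes (24.9% higher and 24.3% lower). Here 6 of 7 pro-apoptotic members rose, and of the anti-apoptotic members 1 rose and 1 fell. In malignant against premalignant cells 4 members were called, 3 higher and 1 lower, beside 6.18% of all genes (3.73% higher and 2.45% lower). The median log2 fold change of the members was 0.09, 0.84 and 0.21 in these 3 comparisons, against -0.08, -0.02 and 0.04 over all genes tested. Without premalignant replicate 1 or 2, 3 members were called in premalignant against wild type cells. Between malignant and premalignant cells 1 member was called without wild type replicate 1 or 2, and edgeR called 0 without premalignant replicate 1 or 2, where 4 had an unadjusted p below 0.05. The comparisons share libraries with each other, so their counts are not independent. In bulk RNA, fewer cells of a type and less RNA of a gene per cell cannot be told apart.

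Counted by whether the libraries of 2 stages overlap, 5 members were higher and 4 lower in both premalignant than in both wild type libraries, beside 36.2% of all genes higher and 41.2% lower. Between malignant and wild type libraries 7 members were higher and 2 lower, beside 35.3% and 36.4%. Between malignant and premalignant libraries 5 members were higher and 1 lower, beside 25.9% and 25.2%. These shares are large for all genes, so that separation of the libraries alone does not set a member apart.

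**Figure D2:**
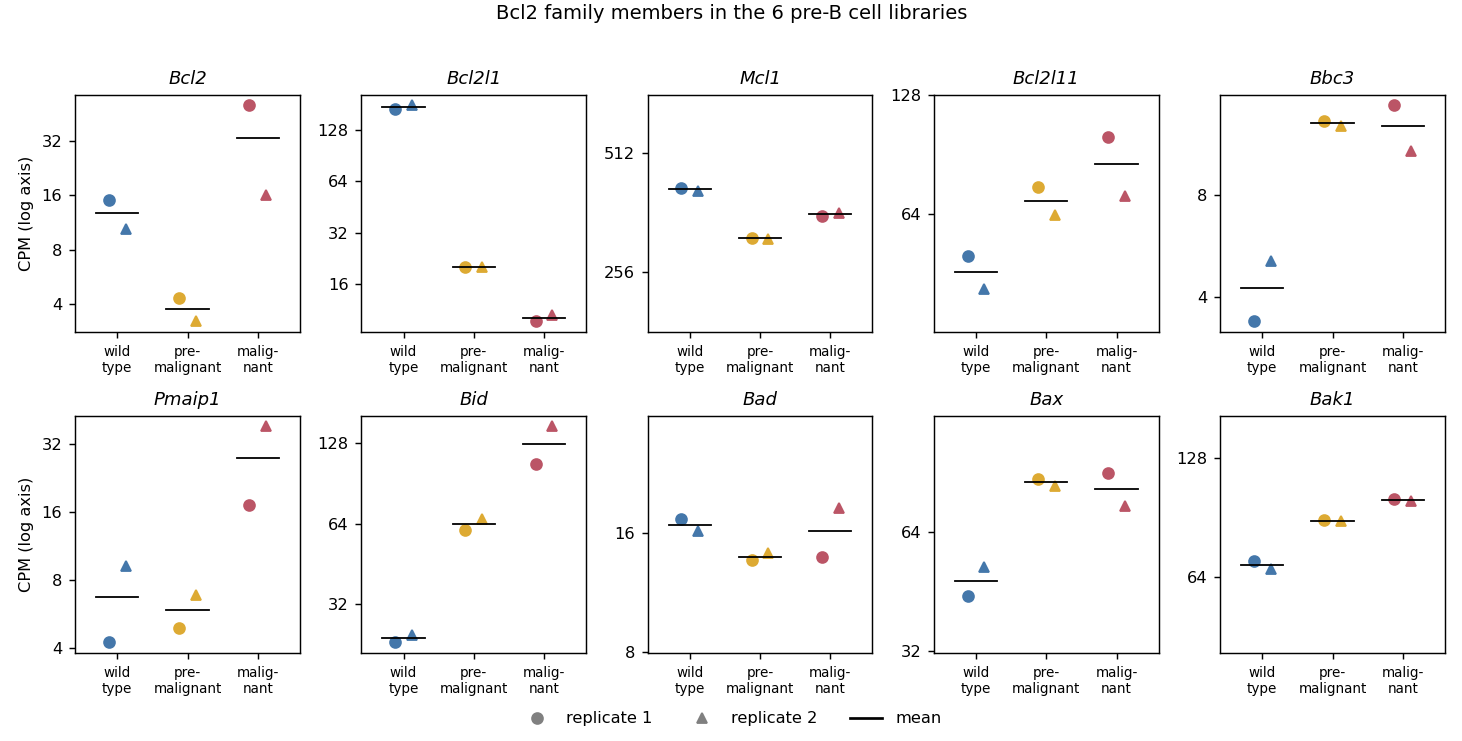
Level of each member in CPM (log y axes, whose ranges differ between panels) in the 6 libraries, with circles for replicate 1, triangles for replicate 2 and a line at the mean of each stage. The Bcl2l1 libraries of each stage lie close together at 169 and 177, 20.1 and 20.2, and 9.71 and 10.6 CPM, while the malignant libraries are far apart for Bcl2 (50.2 and 16.0 CPM) and Pmaip1 (17.1 and 38.2 CPM).

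Among the anti-apoptotic members, Bcl2l1 (ENSMUSG00000007659, mm9 chr2:152593052-152657464, minus strand) encodes Bcl-xL. Its level was 169 and 177 CPM in the wild type libraries, 20.1 and 20.2 in the premalignant libraries and 9.71 and 10.6 in the malignant libraries. The 3 stages did not overlap, and the libraries within a stage differed by at most 0.12 on the log2 scale. Bcl2l1 fell in premalignant cells by 3.11 ± 0.14 (log2 fold change ± SE, n = 2 per stage, edgeR quasi-likelihood adjusted p = 0.00130) and in malignant cells it fell by 4.09 ± 0.15 (edgeR adjusted p = 0.000338). Between malignant and premalignant cells it fell by 0.99 ± 0.13 (edgeR adjusted p = 0.0259). Compared within replicate 1 and within replicate 2, which are single libraries of like depth, the log2 differences were -3.04 and -3.10 for premalignant and -4.05 and -4.00 for malignant against wild type. Erythroid cells are also known to express Bcl2l1, and the summed erythroid markers, at 293 and 1080 CPM in wild type and 52.3 to 138 in the other libraries, were also highest in wild type. The summed pre-B markers were highest in wild type as well, at 7612 and 8305 CPM against 2827 to 3511 in the other libraries. The part of erythroid cells or of pre-B cells in the falls of Bcl2l1 was not tested. The falls against wild type were called in all 12 alternative fits, whereas the fall between premalignant and malignant cells lost its call with only those 2 stages in the fit (adjusted p = 0.136) and without premalignant replicate 1 or 2 (adjusted p = 0.314 and 0.262).

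Bcl2 (ENSMUSG00000057329, mm9 chr1:108434755-108610851, minus strand), the founding inhibitor of apoptosis in the family, was the member with the least even malignant libraries. Its level was 15 and 10.5 CPM in wild type, 4.36 and 3.22 in premalignant, and 50.2 and 16.0 in malignant libraries. Both premalignant libraries lay below and both malignant libraries above the wild type libraries, the second malignant library only narrowly. Bcl2 fell in premalignant cells by 1.74 ± 0.55 (log2 fold change ± SE, n = 2 per stage, edgeR adjusted p = 0.0544) and rose in malignant cells by 1.38 ± 0.53 against wild type (edgeR adjusted p = 0.0802) and by 3.12 ± 0.57 against premalignant cells (edgeR adjusted p = 0.0519). The malignant libraries differed by 1.62 on the log2 scale, more than 96.6% of the genes tested differed within that stage. Without malignant replicate 1, the log2 fold change of malignant against wild type cells was 0.33 (adjusted p = 0.396) and against premalignant cells 2.07, and without malignant replicate 2 the former was 2.00. The call of malignant against wild type was also lost without wild type replicate 1 or 2 (adjusted p = 0.171 and 0.315) or premalignant replicate 1 or 2 (0.123 and 0.121), with upper-quartile normalization (1.22, adjusted p = 0.113) and with only those 2 stages in the fit (0.122). The call of the fall in premalignant cells was lost without any 1 of the wild type or premalignant libraries (adjusted p = 0.139 to 0.259). The rise from premalignant to malignant cells lost its call without wild type replicate 1 or 2 (adjusted p = 0.141 and 0.136), without premalignant replicate 1 or 2 (0.376 and 0.348) and with only those 2 stages in the fit (0.134). Of the Bcl2 exon bases, 7.76% overlap D630008O14Rik on the opposite strand, and the library kit does not mark strand.

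Mcl1 (ENSMUSG00000038612, mm9 chr3:95462643-95467099, plus strand), a short-lived inhibitor on which B cell progenitors are known to depend, stood at 419 and 409 CPM in wild type, 313 and 310 in premalignant and 355 and 362 in malignant libraries. The 3 stages did not overlap and the libraries of a stage differed by at most 0.03 on the log2 scale. The log2 fold change of premalignant against wild type cells was -0.41 ± 0.12 (n = 2 per stage, edgeR adjusted p = 0.0467), which lies under the minimum of 0.5, so Mcl1 was not called. In malignant cells the difference was -0.21 ± 0.12 against wild type (edgeR adjusted p = 0.212) and 0.20 ± 0.12 against premalignant cells (edgeR adjusted p = 0.424).

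Of the BH3-only members, Bid (ENSMUSG00000004446, mm9 chr6:120841948-120866871, minus strand), whose protein is cut by caspase-8 and links death receptors to mitochondria, had the widest rise. Its level was 23.0 and 24.6 CPM in wild type, 60.5 and 66.6 in premalignant and 107 and 148 in malignant libraries. The 3 stages did not overlap and followed the order of progression. Bid rose in premalignant cells by 1.42 ± 0.19 (log2 fold change ± SE, n = 2 per stage, edgeR adjusted p = 0.00470) and in malignant cells by 2.42 ± 0.20 (edgeR adjusted p = 0.000744), and both were called in all 12 alternative fits. The rise from premalignant to malignant cells was 1.01 ± 0.19 (edgeR adjusted p = 0.0539). That call was lost without wild type replicate 1 or 2 (adjusted p = 0.139 and 0.136), without premalignant replicate 1 or 2 (0.471 and 0.336) and with only those 2 stages in the fit (0.141). Of the Bid exon bases, 17.7% overlap the neighbouring Bcl2l13 on the opposite strand, which lay at 73.5 to 119 CPM and was called in none of the 3 comparisons (edgeR adjusted p = 0.364, 0.187 and 0.821, none of them below 0.05 unadjusted).

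Bbc3 (ENSMUSG00000002083, mm9 chr7:16894965-16903554, plus strand) encodes Puma, a target of p53. Its level was 3.38 and 5.12 CPM in wild type, 13.3 and 12.9 in premalignant and 14.8 and 10.9 in malignant libraries. All 4 transgenic libraries lay above both wild type libraries. Bbc3 rose in premalignant cells by 1.62 ± 0.31 (log2 fold change ± SE, n = 2 per stage, edgeR adjusted p = 0.0128) and in malignant cells by 1.60 ± 0.31 (edgeR adjusted p = 0.00881), and both were called in all 12 alternative fits. Between malignant and premalignant cells the libraries overlapped and the difference was -0.03 ± 0.30 (edgeR adjusted p = 0.978).

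Bcl2l11 (ENSMUSG00000027381, mm9 chr2:127951774-127988283, plus strand) encodes Bim, which can bind all the anti-apoptotic proteins. Its level was 50.1 and 41.3 CPM in wild type, 74.9 and 63.7 in premalignant and 100.3 and 71.3 in malignant libraries. Both transgenic stages lay above wild type, and premalignant and malignant libraries overlapped. Bcl2l11 rose in premalignant cells by 0.60 ± 0.21 (log2 fold change ± SE, n = 2 per stage, edgeR adjusted p = 0.0763) and in malignant cells by 0.91 ± 0.21 (edgeR adjusted p = 0.0166). The first call was lost with upper-quartile normalization (0.52, adjusted p = 0.110) and without any 1 of the wild type or premalignant libraries (adjusted p = 0.127 to 0.325), and the second without wild type replicate 2 (0.78, adjusted p = 0.101). Between malignant and premalignant cells the log2 difference was 0.31 ± 0.21 (edgeR adjusted p = 0.485).

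Pmaip1 (ENSMUSG00000024521, mm9 chr18:66618258-66625204, plus strand) encodes Noxa, which binds Mcl1. Its level was 4.22 and 9.17 CPM in wild type, 4.90 and 6.81 in premalignant and 17.1 and 38.2 in malignant libraries. The wild type and premalignant libraries overlapped, and both malignant libraries lay above all 4 others. Pmaip1 rose in malignant cells by 2.05 ± 0.53 against wild type (log2 fold change ± SE, n = 2 per stage, edgeR adjusted p = 0.0227) and by 2.24 ± 0.53 against premalignant cells (edgeR adjusted p = 0.0937), while the premalignant difference from wild type was -0.19 ± 0.51 (edgeR adjusted p = 0.804). Its libraries were uneven within stages, by 1.03 on the log2 scale in wild type and 1.14 in malignant cells, more than 97.2% and 92.6% of the genes tested. The rise against wild type lost its call without wild type replicate 1 (1.59, adjusted p = 0.114). It was still called without malignant replicate 2 (1.39) and without wild type replicate 2 (2.71). The rise against premalignant cells lost its call without wild type replicate 1 or 2 (adjusted p = 0.153 and 0.154), without premalignant replicate 1 or 2 (0.549 and 0.390), with only those 2 stages (0.150) and with upper-quartile normalization (0.103), and was 1.51 without malignant replicate 2.

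Bad (ENSMUSG00000024959, mm9 chr19:7016351-7026388, plus strand), whose protein is held inactive by phosphorylation downstream of growth factors, was called in no comparison. Its level was 17.4 and 16.2 CPM in wild type, 13.7 and 14.2 in premalignant and 13.9 and 18.5 in malignant libraries. Both premalignant libraries lay below both wild type libraries, and the malignant libraries spanned the wild type values. The log2 difference was -0.27 ± 0.22 in premalignant cells (n = 2 per stage, edgeR adjusted p = 0.387), -0.05 ± 0.22 in malignant cells (edgeR adjusted p = 0.872) and 0.21 ± 0.22 between them (edgeR adjusted p = 0.658), and none of the 3 had an unadjusted p below 0.05. Of the Bad exon bases, 25.8% overlap Gpr137 on the opposite strand, which fell in premalignant cells (-1.10 ± 0.28 on the log2 scale, edgeR adjusted p = 0.0299) and in malignant cells (-0.75 ± 0.28, edgeR adjusted p = 0.0698). The part of Gpr137 reads in the Bad counts was not tested.

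The effectors Bax (ENSMUSG00000003873, mm9 chr7:52717065-52722268, minus strand) and Bak1 (ENSMUSG00000057789, mm9 chr17:27156755-27165954, minus strand) form the pores in the outer membrane. Bax lay at 44.1 and 52.0 CPM in wild type, 87.3 and 83.8 in premalignant and 90.3 and 74.2 in malignant libraries. All 4 transgenic libraries lay above both wild type libraries, and the transgenic stages overlapped. Bax rose in premalignant cells by 0.83 ± 0.16 (log2 fold change ± SE, n = 2 per stage, edgeR adjusted p = 0.0133) and in malignant cells by 0.78 ± 0.16 (edgeR adjusted p = 0.0110), and differed by -0.06 ± 0.16 between them (edgeR adjusted p = 0.896). The premalignant call was lost without premalignant replicate 1 (adjusted p = 0.106) or 2 (0.102).

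Bak1 lay at 70.4 and 66.9 CPM in wild type, 89.0 and 88.6 in premalignant and 100.5 and 99.9 in malignant libraries. Its 3 stages did not overlap and its libraries differed by at most 0.07 on the log2 scale within a stage. Bak1 rose in malignant cells by 0.55 ± 0.12 against wild type (log2 fold change ± SE, n = 2 per stage, edgeR adjusted p = 0.0135), whereas the premalignant difference of 0.37 ± 0.12 (edgeR adjusted p = 0.0607) lay under the minimum fold change. Between malignant and premalignant cells the difference was 0.18 ± 0.12 (edgeR adjusted p = 0.487). The malignant call was lost where the fold change dropped under 0.5, with upper-quartile normalization (0.38) and with a filter of at least 10 counts in every library (0.46). Of the Bak1 exon bases, 14.8% overlap Ggnbp1 on the opposite strand, which lay at 3.21 and 3.94 CPM in wild type, 5.77 and 4.55 in premalignant and 30 and 53.2 in malignant libraries. The part of Ggnbp1 reads in the Bak1 counts was not tested.

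Levels can be compared between members only per length, here as RPKM (counts per kilobase of merged exons, scaled to library size). Mcl1 was the highest member in all 6 libraries, at 133 ± 1.19 RPKM in wild type cells (mean ± SD, n = 2 per stage), at 86.8 ± 1.86 in premalignant cells and at 94.1 ± 3.32 in malignant cells. Bcl2l1 followed in wild type cells at 41.1 ± 1.70 RPKM and did not differ from Bax (40.3 ± 4.98) beyond their spread, since the order of the pair changed between the wild type libraries. That tie depends on the length used, because with the longest transcript in place of merged exons Bcl2l1 stood at 80.5 ± 3.34 RPKM and above Bax (51.4 ± 6.36) in both wild type libraries. Bak1 came next at 32.0 ± 0.91 RPKM, then Bad (9.39 ± 0.38), Bid (7.52 ± 0.41) and Bcl2l11 (6.39 ± 0.83). Pmaip1, Bbc3 and Bcl2 closed the wild type order at 2.85 ± 1.51, 2.38 ± 0.71 and 1.99 ± 0.49 RPKM and could not be ordered beyond their spread.

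In premalignant cells the order of RPKM changed at Bcl2l1, which stood in place 8 of 10 in both libraries at 4.13 ± 0.05 RPKM. Bax (62.1 ± 2.78 RPKM), Bak1 (35.8 ± 0.66) and Bid (17.4 ± 0.91) followed Mcl1 in both premalignant libraries, and Bcl2 was last at 0.51 ± 0.12. In malignant cells Bcl2l1 stood at 1.97 ± 0.16 RPKM, in place 10 of replicate 1 and place 9 of replicate 2. Bid reached 27.1 and 38.8 RPKM in the malignant libraries, next to Bak1 at 37.7 and 38.6, and the pair traded places between them. With the length of the longest transcript Bid lay above Bak1 in both malignant libraries (39.9 and 57.1 against 38.0 and 38.9 RPKM). Bcl2 was in place 7 in malignant replicate 1 (6.30 RPKM) and in place 10 in replicate 2 (2.07 RPKM).

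**Figure D3:**
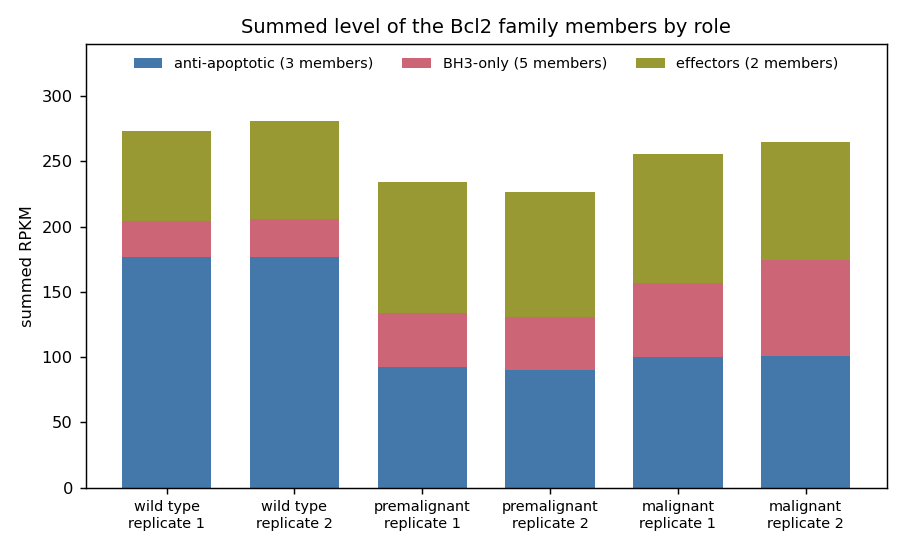
Summed RPKM of the 3 anti-apoptotic, 5 BH3-only and 2 effector members (stacked bars, y axis from 0) in each of the 6 libraries. The anti-apoptotic sum is 177 in both wild type libraries and 90.0 to 101 in the other 4. The sum of the 5 BH3-only members is lowest in wild type (27.5 and 29.5) and highest in malignant cells (57.1 and 74.1). It leaves out the BH3-only gene Bmf, which lay at 30.1 and 39.4 RPKM in wild type.

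Summed by role, the anti-apoptotic members gave 177 and 177 RPKM in wild type, 92.9 and 90.0 in premalignant and 99.9 and 100.6 in malignant libraries. The BH3-only members gave 27.5 and 29.5, 40.9 and 41.1, and 57.1 and 74.1 RPKM, and the effectors 69.5 and 75.2, 100.3 and 95.5, and 98.5 and 90.0 RPKM. Bmf, a BH3-only gene outside the members, is not in these sums. It lay at 30.1 and 39.4 RPKM in wild type, 2.12 and 2.80 in premalignant and 9.15 and 2.13 in malignant libraries. In both wild type libraries Bmf alone exceeded the BH3-only members together, so their order of stages does not extend to all BH3-only genes. The anti-apoptotic share of the summed RPKM was 64.5% and 62.8% in wild type, 39.7% and 39.7% in premalignant and 39.1% and 38.0% in malignant libraries. All 4 transgenic libraries thus lay below both wild type libraries, while the transgenic stages differed little (39.7% ± 0.04 and 38.6% ± 0.77, SD, n = 2 per stage). With the length of the longest transcript in place of merged exons the stage means were 63.6%, 35.6% and 33.8%. These sums describe RNA and not protein, and no test was made on them. They use unscaled totals, whereas the tests used TMM factors of 1.12 and 1.13 in wild type, 0.982 and 0.961 in premalignant and 0.903 and 0.929 in malignant libraries. Summed RPKM therefore shows larger falls and smaller rises against wild type than the scale of the tests. The shares do not depend on this scaling.

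Within the anti-apoptotic sum, Mcl1 made up 76.1% and 75.1% of the RPKM in wild type, 94.9% and 95.0% in premalignant and 91.8% and 95.9% in malignant libraries. The share of Bcl2l1 was 22.6% and 24.0%, then 4.48% and 4.55%, then 1.85% and 2.07%. With the length of the longest transcript it was 36.4% and 38.2%, then 8.42% and 8.54%, then 3.56% and 3.97%, and that of Mcl1 was 62.5% and 61.1% in wild type and 90.2% to 94.0% in the other 4 libraries. Bcl2 held 1.32% and 0.931% in wild type, 0.642% and 0.479% in premalignant and 6.30% and 2.05% in malignant libraries. Mcl1 thus accounted for nearly all of the anti-apoptotic RNA of these 3 genes in transgenic cells. Bid made up 26.3% and 26.5% of the BH3-only sum in wild type, 40.9% and 43.9% in premalignant and 47.5% and 52.4% in malignant libraries.

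The rest of the pathway was described with a list of 42 other genes, of which 36 were tested and 6 were too low (Bcl2a1a, Bcl2a1b, Bcl2a1d, Bcl2l10, Hrk and Trp73). In premalignant against wild type cells 17 of the 36 were called, 6 higher and 11 lower, beside the 39.3% of all genes. In malignant against wild type cells 24 were called, 9 higher and 15 lower, beside 49.2%. In malignant against premalignant cells 2 were called, Vdac2 higher and Bcl2l2 lower, beside 6.18%. The median log2 fold change of the list was 0.02, 0.13 and -0.03 in the 3 comparisons.

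**Figure D4:**
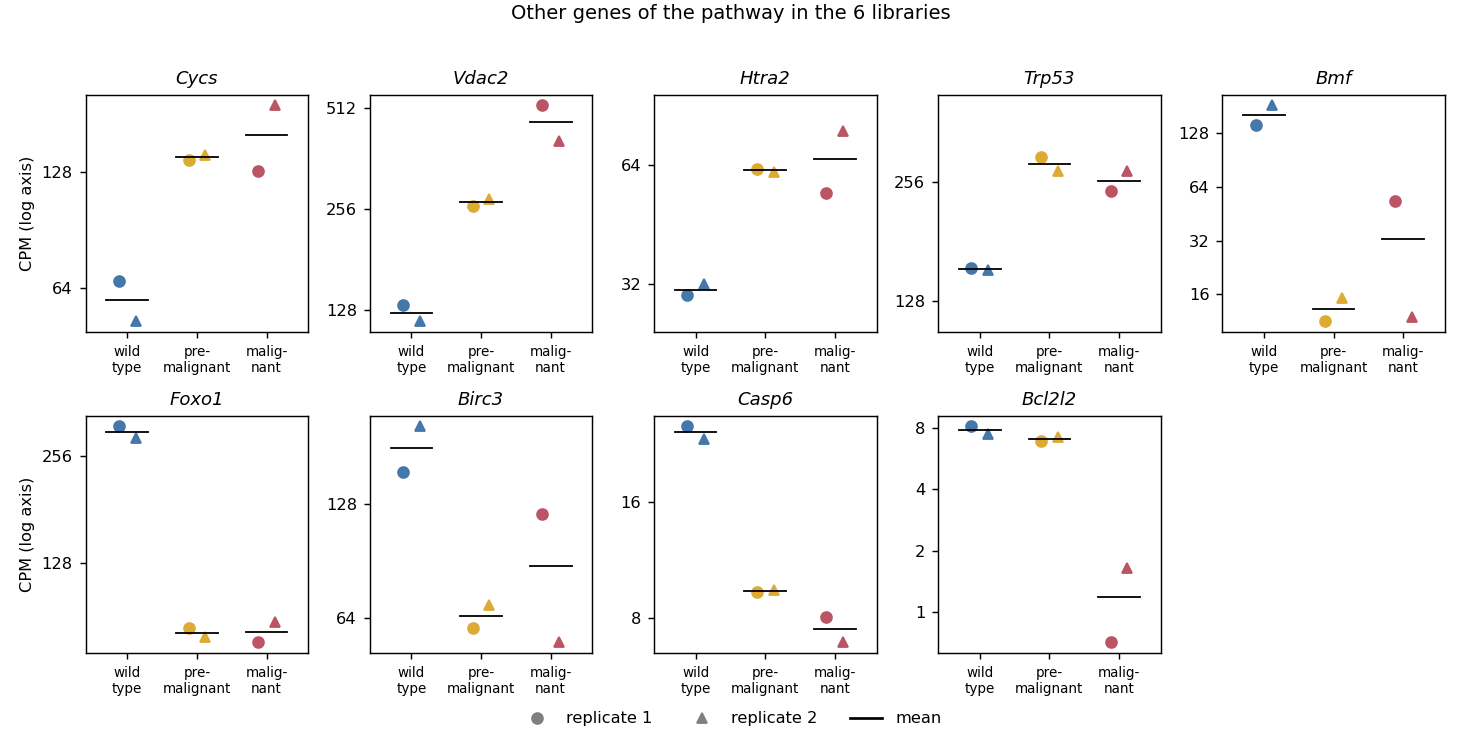
Level in CPM (log y axes, whose ranges differ between panels) of the 9 other pathway genes described in the text, with circles for replicate 1, triangles for replicate 2 and a line at the mean of each stage. Foxo1 and Casp6 lie lower in all 4 transgenic libraries, Vdac2, Cycs, Htra2 and Trp53 lie higher, and the malignant libraries are far apart for Bmf (53.3 and 12 CPM).

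Among other BH3-only and anti-apoptotic genes, Bmf, which encodes a BH3-only protein tied to the cytoskeleton, lay at 141 and 183 CPM in wild type, 11.3 and 15.3 in premalignant and 53.3 and 12 in malignant libraries. Whereas 4 BH3-only or effector members rose at both stages, Bmf fell by 3.61 ± 0.68 in premalignant (log2 fold change ± SE, n = 2 per stage, edgeR adjusted p = 0.0120) and by 2.31 ± 0.64 in malignant cells (edgeR adjusted p = 0.0284). Bcl2l2, an anti-apoptotic relative that encodes Bcl-w, lay at 8.13 and 7.42 CPM in wild type, 6.88 and 7.17 in premalignant and 0.711 and 1.65 in malignant libraries. It fell in malignant cells by 2.74 ± 0.45 against wild type (edgeR adjusted p = 0.00514) and fell by 2.59 ± 0.45 against premalignant cells (edgeR adjusted p = 0.0456). Of the exon bases of Bcl2l2, 13.3% overlap Gm20521 on the same strand, and reads there may have been left out of its counts.

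Downstream of the mitochondria, 3 of 7 genes of the caspase cascade were called in premalignant cells (1 higher and 2 lower) and 5 in malignant cells (2 higher and 3 lower) against wild type, beside 39.3% and 49.2% of all genes. Cycs, which encodes the cytochrome c that the pores release, rose from 66.6 and 52.4 CPM in wild type to 137 and 142 in premalignant and 129 and 190 in malignant libraries (log2 fold changes 1.23 ± 0.22 and 1.42 ± 0.22, edgeR adjusted p = 0.0111 and 0.00442). Casp6, an executioner caspase, fell from 25.1 and 23.3 CPM to 9.32 and 9.43 and to 8.05 and 6.92 (-1.37 ± 0.21 and -1.69 ± 0.21, edgeR adjusted p = 0.00642 and 0.00207). Of 6 inhibitor-of-apoptosis genes and their antagonists, 1 was higher and 2 were lower in premalignant cells, and 1 was higher and 3 were lower in malignant cells, beside the same shares of all genes. Among them, Birc3 fell in premalignant cells from 155 and 205 CPM to 60.1 and 69.2 (-1.48 ± 0.36, edgeR adjusted p = 0.0275), and its malignant libraries lay at 120 and 55.2. Htra2, an antagonist released from mitochondria, rose from 29.9 and 32.0 CPM to 62.6 and 61.4 in premalignant and 54.3 and 77.9 in malignant libraries (1.00 ± 0.20 and 1.09 ± 0.20, edgeR adjusted p = 0.0138 and 0.00690). Of 6 genes of death receptors and their signalling proteins, 2 were lower in premalignant cells, again beside 39.3% of all genes. In malignant cells 1 was higher, the adaptor gene Fadd, and 3 were lower, beside 49.2%.

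Upstream of the family, 7 of 9 tested regulators were called in each transgenic stage against wild type, 3 higher and 4 lower, beside 39.3% of all genes in premalignant and 49.2% in malignant cells. Trp53, which encodes the p53 that activates Bbc3, Pmaip1 and Bax, rose from 155 and 153 CPM in wild type to 297 and 273 in premalignant and 242 and 272 in malignant libraries (0.89 ± 0.13 and 0.74 ± 0.13, edgeR adjusted p = 0.00620 and 0.00667). Foxo1, an activator of Bcl2l11 in many cells, fell from 311 and 289 CPM to 84.2 and 79.6 and to 76.9 and 87.7 (-1.87 ± 0.14 and -1.86 ± 0.14, edgeR adjusted p = 0.00159 and 0.000640). Bcl2l11 was higher at both of these stages, and a link between the changes of Foxo1 and Bcl2l11 was not tested. Vdac2, a channel of the outer membrane that binds Bak1 protein, rose at each step, from 133 and 118 CPM to 262 and 274 and to 521 and 407. Its log2 fold changes were 1.09 ± 0.17 and 1.89 ± 0.17 against wild type (edgeR adjusted p = 0.00642 and 0.000912) and 0.79 ± 0.16 from premalignant to malignant cells (edgeR adjusted p = 0.0681). The calls of Vdac2 and Bcl2l2 between malignant and premalignant cells were lost without premalignant replicate 1 or 2 or wild type replicate 1 or 2, each of which left 0 pathway genes called (2 to 3 had an unadjusted p below 0.05), and 8 pathway genes were called without malignant replicate 2. The count in premalignant against wild type cells was 7 without premalignant replicate 1 and 6 without premalignant replicate 2.

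Cdkn2a, which encodes the p53 activator Arf among its products, was picked out after its values were seen. Its counts are per gene, with 3 annotated transcripts, and cannot be assigned to Arf. Cdkn2a lay at 0.193 and 0.0566 CPM in wild type, 4.13 and 5.60 in premalignant and 0.293 and 8.82 in malignant libraries. It was called higher in premalignant and malignant cells (5.17 ± 1.56 and 5.06 ± 1.56, edgeR adjusted p = 0.0492 and 0.0403). The malignant libraries thus stood apart at Cdkn2a, with replicate 1 near the wild type level. The same library held the higher Bcl2 (50.2 against 16.0 CPM), Bcl2l11, Bbc3 and Bax and the lower Pmaip1, Bid and Bad of the malignant pair. On the log2 scale the gaps were 1.62 for Bcl2 and 1.14 for Pmaip1. For Bcl2l11, Bbc3, Bax, Bid and Bad they were 0.28 to 0.49, against a median of 0.32 over all genes tested. Bcl2l1, Mcl1 and Bak1 differed by at most 0.12, and a tie of any member to Cdkn2a was not tested. With 1 lymphoma on each side these differences had no replicate.

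Bcl2l1 had the widest range of stage means among the members, 4.03 on the log2 scale. The genes whose log2 CPM, centred over the 6 libraries, lay closest to it among 10000 candidates were Trp53inp2, Rasgrp3 and Id2, at root mean square distances of 0.07, 0.17 and 0.19 against a median of 1.79. Trp53inp2 lay at 36.5 and 41.5 CPM in wild type, 4.21 and 3.77 in premalignant and 1.63 and 2.01 in malignant libraries, in step with Bcl2l1. The likeness is a description over 6 libraries of 3 stages.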

How the data were processed

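Polyadenylated RNA of 6 libraries (pre-B cells of 3 stages, n = 2 each) was prepared with the TruSeq v2 kit, which does not mark strand, and sequenced as 50-bp single-end reads. The study takes individual animals as replicates, here 2 per stage. The p-values rest on a spread that the model shares across genes and stages, and not on the 2 animals of a stage alone. Alignment by the authors used TopHat, and the raw counts they deposited are HTSeq counts per Ensembl gene, 1 library per file. The submitters' processing notes name mm9, CASAVA 1.8.2, Bowtie, HTSeq and DESeq. The HTSeq options and the annotation are not given in the sources used here. Deposited DEseq tables hold the authors' own means, fold changes and p-values for malignant cells against each other stage, and were not used here.

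Symbols, mm9 coordinates and merged exon lengths came from GENCODE vM1, which named 37205 identifiers and left 786 without a symbol. Counts were tested in 1 fit of all 6 libraries with edgeR 4.0.16 in R 4.3.3 (TMM normalization, default filter on low counts, quasi-likelihood test), and called where the Benjamini-Hochberg FDR did not exceed 0.1 and the log2 fold change reached 0.5 in either direction. The study's methods give these limits with DEseq, for which DESeq2 1.42.0 was an alternative. SE was taken from the log2 fold change and its F statistic. CPM used TMM-scaled totals and RPKM unscaled totals. Scripts were tested on simulated counts. TMM takes most genes as unchanged and, without spike-ins, changes in total RNA per cell would be missed.

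The members and the lists of pathway and marker genes were chosen with earlier results of these data known. All members were named, and 2 other genes of the lists are not reported here by name. Of the pathway list, the rule named per comparison among called genes the 4 that rose most and the 4 that fell most, given non-overlapping libraries and 5 CPM or more as the mean of the higher stage. For the member with the widest range of stage means, the 3 genes nearest to it were named. Libraries of a stage were not copies of each other, as 23.8% to 53.4% of genes differed by more than 3 Poisson SD. Reads in exons that overlap another gene cannot be assigned by strand here. Replicate 1 libraries held 51065861 to 53453055 counts and replicate 2 libraries 30031100 to 34543633, and a floor of 3 counts lay between 0.0526 and 0.108 CPM. Promoter windows came from RefSeq on GRCm38.p6 and no coordinates were converted between builds.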

Additional observations from a re-analysis of the deposited data

How the results depend on the processing

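Of the alternative values of the members (30 log2 fold changes under DESeq2, upper-quartile normalization, no filter, at least 10 counts in every library, a replicate block, only the 2 stages compared and each library left out), 312 kept direction and call, 41 kept the direction without the call and 7 changed sign. Those 7 were never called and came from leaving out 1 library: Pmaip1 in premalignant against wild type cells (-0.64 to 0.47 over the 6 omissions), Bad in malignant against wild type (-0.24 to 0.15) and, in malignant against premalignant cells, Bbc3 (-0.27 to 0.14), Bad (-0.038 to 0.40) and Bax (-0.21 to 0.043). A stage left with 1 library was assumed to vary like the others. Upper-quartile normalization moved the median of all genes in malignant against wild type cells by -0.17 on the log2 scale. With 1 library left out, 3 to 6 members were called in premalignant against wild type, 6 to 8 in malignant against wild type and 0 to 4 in malignant against premalignant cells. The pathway counts were 6 to 25, 16 to 26 and 0 to 8. Over all genes they were 2094 (without premalignant replicate 2) to 8455, 5945 to 9200, and 0 (without premalignant replicate 1 or 2, with 1472 and 1777 at an unadjusted edgeR p below 0.05) to 3805 (without malignant replicate 2).

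With a minimum of 1 for the absolute log2 fold change, 5 members were called in malignant against wild type cells, pathway counts were 10, 13 and 1 in the 3 comparisons, and 4282 genes were called in premalignant against wild type. Malignant against premalignant cells depended most on the settings. With only those 2 stages in the fit, edgeR called 0 members and 0 pathway genes (4 and 4 at an unadjusted p below 0.05) and 258 genes in all, and at an FDR of at most 0.05, 1 member, 1 pathway gene and 407 genes. DESeq2 called 2186 genes and edgeR without a filter 2810, beside 1031, while each called 4 members. The anti-apoptotic share of summed RPKM was 35.6% in premalignant and 33.8% in malignant cells with the length of the longest transcript. The causes were not tested.

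Replicate numbers 1 and 2 recur in every stage, and nothing in the labels says that they pair the mice. Same-numbered libraries deviated together with a correlation of 0.41 for premalignant and wild type, 0.06 for malignant and wild type and 0.13 for malignant and premalignant cells. Deviations were taken from the mean of the 2 libraries of a stage, so replicate 2 mirrors replicate 1 and adds nothing independent. Replicate 1 was also the deeper library at every stage. With the replicate block, 6, 8 and 4 members, 19, 23 and 2 pathway genes and 6575, 8224 and 940 genes were called, and no member's call changed. At 0.0526 to 0.108 CPM for 3 counts, depth limited none of the members, of which the lowest value was 3.22 CPM.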

Other observations

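Further called genes of the pathway list lay outside the naming rule. Below the mitochondria, Casp9, the initiator caspase of the apoptosome, fell from 43.2 and 45.0 CPM in wild type to 25.5 and 26.8 in premalignant and 27.3 and 26.9 in malignant libraries (log2 fold changes -0.75 ± 0.14 and -0.70 ± 0.14, edgeR adjusted p = 0.0122 and 0.00989). Its adaptor Apaf1 fell in malignant cells (-0.52 ± 0.14, edgeR adjusted p = 0.0253). The caspase inhibitor Birc2 fell at both stages (-0.65 ± 0.13 and -0.84 ± 0.13, edgeR adjusted p = 0.0140 and 0.00397), and Xiap fell in malignant cells (-0.66 ± 0.17, edgeR adjusted p = 0.0225). Birc3 was also called lower in malignant cells (-1.03 ± 0.36, edgeR adjusted p = 0.0601), with libraries at 120 and 55.2 CPM.

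On the death receptor side, Cflar, an inhibitor of caspase-8, fell from 93.4 and 91.5 CPM to 55.0 and 50.9 in premalignant and 62.5 and 42.5 in malignant libraries (-0.80 ± 0.20 and -0.82 ± 0.20, edgeR adjusted p = 0.0289 and 0.0199). The receptor gene Fas fell at both stages from 1.35 and 2.04 CPM to 0.663 CPM or less, Tnfrsf10b fell in malignant cells (-1.22 ± 0.34, edgeR adjusted p = 0.0285), and the adaptor gene Fadd rose there (0.59 ± 0.23, edgeR adjusted p = 0.0775). Among regulators, Mdm2, both a target and an inhibitor of p53, fell from 134 and 127 CPM to 85.6 and 79.7 in premalignant and 71.1 and 77.1 in malignant libraries (-0.66 ± 0.13 and -0.82 ± 0.13, edgeR adjusted p = 0.0132 and 0.00430), while Trp53 and its target Bbc3 rose at both stages. Foxo3 and Ddit3 fell and E2f1 rose at both stages. Bik, a BH3-only gene, was called higher in malignant cells (2.5 ± 0.66, edgeR adjusted p = 0.0247) at 1.69 and 0.574 CPM.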
